A study of Homo sapiens with 4 samples.

Results

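The first reading after treatment in this time course compared HepG2 cells 2 h after the addition of 200 ng/ml APRIL with cells at 0 h that had received none. HepG2 is an established human line derived from a liver cancer that keeps many features of hepatocytes. Both samples had been held without serum, for 24 h by the design text and overnight by the treatment protocol, and the cells were grown in RPMI medium with 10% fetal bovine serum before that. Total RNA was read on Affymetrix U133 Plus 2.0 arrays for human transcripts, with 1 array for each time, so the comparison uses 2 of the 4 arrays and the arrays at 6 h and 12 h appear only beside it. Among the arrays used here no untreated culture was read at 2 h, so the time elapsed since 0 h and the treatment cannot be told apart. Each probe set's value at 0 h was subtracted from its value at 2 h, and a gene's log2 ratio is the median of these differences, taken over the probe sets that carry exactly 1 gene symbol. This gave 19775 genes from 41091 of the 54675 probe sets.

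APRIL, the product of TNFSF13, is a soluble member of the tumour necrosis factor superfamily. It binds the receptors BCMA and TACI, best known from B cells and plasma cells, and the sulphated sugar chains of proteoglycans on many other cells. Ligands of this family often act through TRAF adaptors on NF-kB and mitogen-activated kinases, whose immediate target genes can respond within the first hours. Zinc, oxidant and amino acid supply have their own fast transcriptional responses in liver cells, run by MTF1, NRF2 and ATF4, and the members of these responses are described here one group at a time.

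With 1 array at each time there was no replicate error, no test and no p-value, and each difference below is a difference between 2 arrays. The deposited values are on a log2 scale and are centred so that each probe set has a median of 0 over the 4 arrays, so they hold no expression level. A consequence is that the middle 2 of a probe set's 4 values are mirror images around 0. The labelled cell type could not be checked against hepatocyte markers, because a centred value does not say whether a transcript is present. Each array reads RNA pooled from a whole culture, so fewer cells of a kind and less RNA per cell cannot be told apart. Precision is limited by there being so few arrays.

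Between 0 h and 2 h most genes differed little. The median log2 ratio over the 19775 genes was 0.016, their robust SD was 0.16, and the middle 90% of genes lay between -0.30 and 0.29. At 2-fold or more (a log2 ratio of at least 1) 7 genes were higher, which is 0.0354% of genes, and 2 were lower, which is 0.0101%. At 1.5-fold 61 genes were higher (0.308%) and 68 lower (0.344%). At a log2 ratio of 0.32 or more in size, which lies just outside the middle 90% and is used below as the smallest difference counted, 752 genes were higher (3.8%) and 848 lower (4.29%). A gene called higher or lower by that threshold is past 0.32 or past -0.32. Above 0 lay 53.5% of genes and below 0 lay 45.9%. The 18 bacterial hybridization control probe sets, which do not depend on the cells, had a median ratio of 0.012 between these 2 arrays and ranged from -0.11 to 0.20.

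A gene that is read by several probe sets offers a check of measurement within the same 2 RNA samples, though not of variation between cultures. Of the 61 genes at least 1.5-fold higher, 54 (88.5%) rested on 1 probe set, and of the 68 lower genes 64 (94.1%) did. Over all 19775 genes, 9252 rested on 1 probe set. Among the 10523 genes with 2 or more probe sets, 28 (0.266%) had every probe set past 0.32 and 38 (0.361%) had every probe set past -0.32. In 229 genes (2.18%) probe sets lay past the threshold in opposite directions. In 6502 of the 10523 genes (61.8%) the probe sets did not all lie on 1 side of 0. Of the 160 such multi-probe-set genes with a median past 0.32, 140 had all probe sets above 0, but 28 had all past 0.32. Of the 161 with a median past -0.32, 127 had all below 0, but 38 had all past -0.32. A single probe set past the threshold is thus a weak reading of its size here. Groups of functionally related genes are therefore given with the number of their members on each side of 0.

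The metallothioneins stood highest. They are small cysteine-rich proteins that hold zinc and copper, and their genes are switched on by MTF1, a factor that senses free zinc through metal response elements in their promoters. Glucocorticoids also raise several of them. The list holds 15 genes, of which 10 were read here. Their median log2 ratio at 2 h was 1.42, beside 0.016 for all genes, and 9 of the 10 lay above 0. All 7 genes past 2-fold upward against the 0 h array belong to this family.

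The promoters show the sequence through which the family is known to answer to zinc. RefSeq promoters (GRCh38.p14) were matched for 4 of the 10 genes, and those of the 3 that were higher at 2 h are printed here as the 250 bases upstream of the start, 5′ to 3′ on the gene's strand. Capitals mark every base inside a match to the metal response element core, searched as TGCACNC or TGCGCNC on both strands, where matches may overlap. The MT1X window is chr16:56682220-56682469, that of MT2A is chr16:56608334-56608583 and that of MT1H is chr16:56669564-56669813, all on the + strand.
MT1X: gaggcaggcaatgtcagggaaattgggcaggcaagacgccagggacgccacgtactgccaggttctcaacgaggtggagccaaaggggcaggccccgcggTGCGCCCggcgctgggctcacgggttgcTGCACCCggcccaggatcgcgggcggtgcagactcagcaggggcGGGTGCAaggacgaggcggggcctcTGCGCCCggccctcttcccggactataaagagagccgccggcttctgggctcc
MT2A: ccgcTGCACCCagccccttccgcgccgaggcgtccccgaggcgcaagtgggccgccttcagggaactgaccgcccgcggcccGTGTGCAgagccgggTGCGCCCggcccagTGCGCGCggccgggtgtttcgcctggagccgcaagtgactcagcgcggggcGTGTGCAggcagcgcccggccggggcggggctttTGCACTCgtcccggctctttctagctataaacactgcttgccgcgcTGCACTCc
MT1H: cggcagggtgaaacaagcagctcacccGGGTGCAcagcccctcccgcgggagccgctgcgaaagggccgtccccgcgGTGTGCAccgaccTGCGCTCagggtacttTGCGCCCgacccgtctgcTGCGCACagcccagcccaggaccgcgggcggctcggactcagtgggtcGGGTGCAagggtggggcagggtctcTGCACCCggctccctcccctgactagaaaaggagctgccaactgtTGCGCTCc
MT1X held 4 matches, MT2A 7 and MT1H 8. MT4, the fourth promoter matched, held 3 matches while its ratio at 2 h was -0.05. At least 1 match occurs in 24.8% of the 35116 RefSeq promoter windows of this length, so a match describes the letters and is not evidence of a bound factor. The same holds for the promoter matches given below. For each list member only the first listed start was searched, which need not be the start used in these cells.

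MT1M gave the highest ratio of any gene. Its single probe set read -0.67 (0 h), 1.37 (2 h), 0.67 (6 h) and -1.15 (12 h), a log2 ratio of 2.03 at 2 h (4.09-fold). The 2 h array was the highest of the 4 and the 12 h array the lowest. MT1X, with 2 probe sets, read -0.57, 1.08, 0.57 and -3.63 at 0, 2, 6 and 12 h, a ratio of 1.64 at 2 h. MT1E, also with 2 probe sets, read -0.54, 1.05, 0.54 and -3.59, a ratio of 1.58. MT2A, the form most abundant in many human tissues, read -0.66, 0.85, 0.66 and -3.22, a ratio of 1.505. In each of these 4 genes the order of the arrays was the same, with 2 h highest, then 6 h, then 0 h, and 12 h lowest. The pattern is also that of MT1H, with a ratio of 1.46, MT1F, with 1.38 over 2 probe sets, and MT1HL1, with 1.27.

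**Figure D1:**
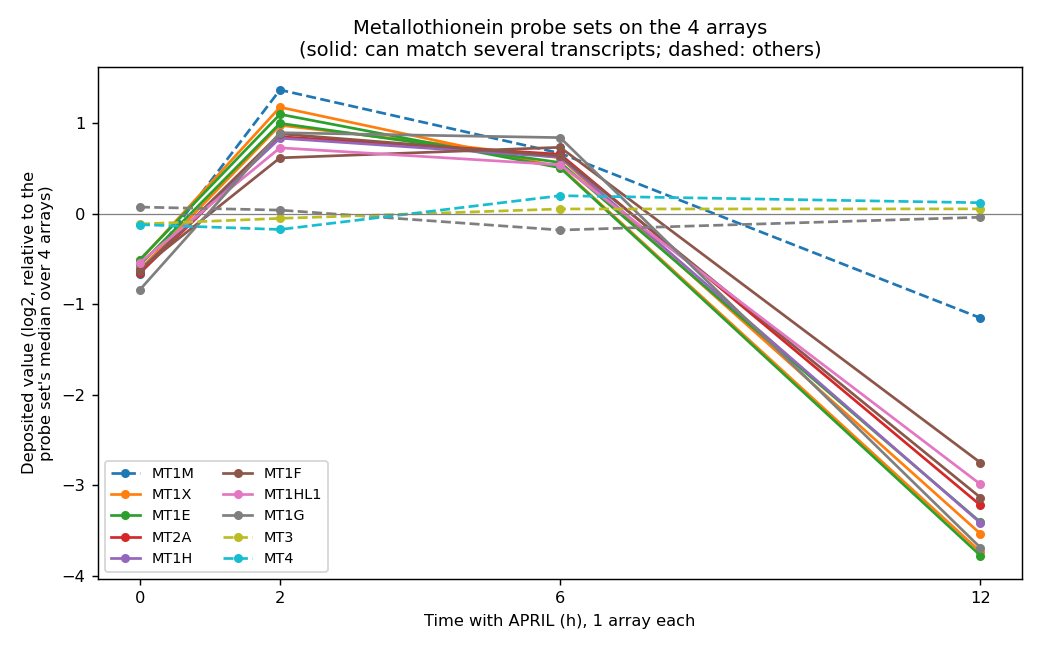
Deposited value (log2, relative to the probe set's median over 4 arrays) of each metallothionein probe set, against hours with APRIL, 1 array at each time. Solid lines are probe sets that can match several transcripts and dashed lines are the others. The solid lines and MT1M are highest at 2 h or 6 h and lowest at 12 h, and the dashed lines of MT1G, MT3 and MT4 stay near 0.

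How many separate genes this represents depends on the probe sets. Affymetrix names that end in _x_at or _s_at mark probe sets that can match several transcripts, and MT1X, MT1E, MT2A, MT1H, MT1F and MT1HL1 were read only by such probe sets. MT1G had 1 of each kind, at 1.73 for the shared probe set and -0.03 for the other, which read 0.07, 0.04, -0.18 and -0.04 on the 4 arrays. MT3, the form typical of brain, lay at 0.06 and MT4, the form of squamous epithelium, at -0.05. When such probe sets were left out, 4 members remained readable and their median was 0.015, with MT1M alone past 2-fold. The higher readings at 2 h were thus those of MT1M and of the shared probe sets, and which other members contributed cannot be told from these probe sets.

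The genes that handle zinc elsewhere in the cell showed no such difference. Of 21 genes for the zinc exporters of the SLC30 family, the importers of the SLC39 family and MTF1, all were read, with a median of 0.05, 13 above 0 and 8 below, and none past 0.32 in either direction. SLC30A1, the exporter at the cell surface and a known MTF1 target, had a median ratio of 0.23 over 3 probe sets that ranged from -0.12 to 0.55. MTF1 itself lay at 0.0043, with 3 probe sets from -0.03 to 0.23. The importer SLC39A8 was the largest in size at 0.31, over 6 probe sets from -0.10 to 0.61. SLC39A4 lay at 0.26, SLC30A7 at -0.24 and SLC30A2 at 0.21. The importers SLC39A10, at 0.07, and SLC39A14, at -0.12, were inside the robust SD of all genes. The promoters of 6 of the 19 zinc genes matched (31.6%, beside 24.8% of all promoter windows) held the metal response element core. Of these, SLC30A1, SLC30A2 and SLC30A4 lay above 0 at 2 h, and SLC30A6, SLC39A3 and SLC39A6 below.

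MT1X and MT2A also stand on the list of glucocorticoid receptor targets. They were the only 2 of its 17 members past the threshold, both higher (11.8%, beside 3.8% of all genes). The median of that list was 0.09. Among its other members CEBPD, a transcription factor, lay just short of the threshold at 0.32 and KLF9 at 0.27 over 5 probe sets from 0.07 to 0.31. PCK1, which encodes the cytosolic enzyme that starts glucose production, lay at -0.24.

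Below 2-fold, the genes of the amino acid response lay above 0 as a group. When amino acids run short or unfolded protein accumulates, kinases phosphorylate the initiation factor eIF2, most translation slows, and the mRNA of ATF4 is translated more. ATF4 then raises genes that make, import and charge amino acids, together with a set of stress regulators. These genes form 4 lists with 68 members read, and 56 of them (82.4%) lay above 0, beside 53.5% of all genes. Their median was 0.18. Past 0.32 were 18 (26.5%, beside 3.8% of all genes) and none was past -0.32 (beside 4.29%). Of their 137 probe sets 100 lay above 0 and 37 below, beside 53% above and 46.2% below over all probe sets used. Of the 42 members with 2 or more probe sets, 17 (40.5%) had all of them above 0, beside 22.2% of all such genes, and 2 (4.76%) had all below, beside 16%. None was past 2-fold against the 0 h array. Without probe sets that can match several transcripts, fewer members were readable and those medians were 0.11 for the enzymes (10 of 14 above 0), 0.11 for the synthetases (9 of 12), 0.21 for the transporters (8 of 10) and 0.14 for the regulators (11 of 14).

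Matches to the element that ATF4 binds with its C/EBP partners are shown for a synthetase and an enzyme of this response. The 250 bases upstream of AARS1 (chr16:70289507-70289756, - strand) and ASNS (chr7:97872409-97872658, - strand) are printed 5′ to 3′ on the gene's strand (RefSeq, GRCh38.p14), with capitals on matches to TGATGNAA on either strand.
AARS1: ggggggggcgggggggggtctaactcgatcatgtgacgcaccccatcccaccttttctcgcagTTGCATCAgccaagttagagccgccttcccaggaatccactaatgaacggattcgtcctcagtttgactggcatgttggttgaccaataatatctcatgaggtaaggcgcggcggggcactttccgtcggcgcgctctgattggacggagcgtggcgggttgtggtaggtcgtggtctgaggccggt
ASNS: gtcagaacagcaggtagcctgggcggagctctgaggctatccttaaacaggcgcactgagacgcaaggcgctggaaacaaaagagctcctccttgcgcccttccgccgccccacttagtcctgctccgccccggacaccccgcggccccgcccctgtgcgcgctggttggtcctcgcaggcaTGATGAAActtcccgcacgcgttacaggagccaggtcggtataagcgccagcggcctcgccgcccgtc
The motif occurs in 3.14% of all promoter windows. It was found in 3 of the 18 regulators with a promoter in the table, in 2 of 12 enzymes, in none of 14 transporters and in 2 of 14 synthetases. Of the 3 regulators ATF3 and FGF21 lay below 0 at 2 h, and CHAC1 above. The windows are short, and elements within genes or further upstream are not covered.

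Among the enzymes of serine, cysteine, asparagine and folate-linked one-carbon metabolism, 14 of 16 lay above 0 and 5 (31.3%) were past 0.32, with a list median of 0.22. CTH, which makes cysteine in the last step of transsulfuration, read -0.24 (0 h), 0.28 (2 h), -1.34 (6 h) and 0.25 (12 h), a ratio of 0.53. Its 2 h and 12 h arrays were the high ones and the 6 h array stood far below. PHGDH, the first enzyme of serine synthesis, read -0.37, 0.08, -0.08 and 0.36, a ratio of 0.45 with the 0 h array lowest. SHMT2, the mitochondrial enzyme that turns serine into glycine, read -0.18, 0.18, -0.37 and 0.68, and its 3 probe sets lay between 0.32 and 0.43 at 2 h. PCK2, the mitochondrial form of phosphoenolpyruvate carboxykinase, read 0.02, 0.45, -0.10 and -0.02, so the 2 h array stood above the other 3. CBS, the first enzyme of transsulfuration, lay at 0.37. PSAT1, the second enzyme of serine synthesis, lay at 0.28 with probe sets at 0.03 and 0.53. MTHFD2, a mitochondrial folate enzyme, lay at 0.24 with probe sets at 0.03 and 0.45.

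ASNS, the asparagine synthetase that is a standard readout of this pathway, had a median of 0.21, but its 2 probe sets lay at -0.17 and 0.59. The members below 0 were PSPH, the last enzyme of serine synthesis, at -0.03 and the mitochondrial folate enzyme ALDH1L2 at -0.06. TYMS, at 0.06, stands on the enzyme list and also on the G1/S list below. It is therefore counted both among the amino acid response genes and among the replication genes.

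Among the amino acid transporters 13 of 16 lay above 0 and 3 (18.8%) were past 0.32, with a median of 0.21. SLC1A5, an importer of glutamine and other neutral amino acids, read -0.32, 0.32, -0.47 and 0.60 at 0, 2, 6 and 12 h, a ratio of 0.64 (1.55-fold) on 1 probe set. SLC7A11, the cystine importer that feeds glutathione synthesis, read -0.23, 0.23, -1.70 and 0.30, a ratio of 0.47, and its 3 probe sets lay between 0.39 and 0.56. Both genes were high at 2 h and 12 h and lowest at 6 h. SLC3A2, the heavy chain with which SLC7A5 and SLC7A11 pair, lay at 0.33 and SLC7A5 at 0.27. Smaller ratios came with close agreement among probe sets in SLC7A1, a carrier of cationic amino acids, at 0.24 (5 probe sets from 0.08 to 0.33) and in SLC1A4 at 0.20 (5 probe sets from 0.14 to 0.25). The lowest member, SLC36A1, a lysosomal exporter, lay at -0.27 with probe sets at -0.60 and 0.05.

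Among the cytosolic aminoacyl-tRNA synthetases, which load tRNAs with their amino acids, 15 of 17 lay above 0 and 6 (35.3%) were past 0.32, with a median of 0.17. SARS1, for serine, read -0.30, 0.25, -0.35 and 0.85, a ratio of 0.54 with its 2 probe sets at 0.50 and 0.58. AARS1, for alanine, read -0.20, 0.20, -0.54 and 0.43, a ratio of 0.40. Both were lower on the 0 h and 6 h arrays than on the other 2. GARS1 lay at 0.43, CARS1 at 0.37 and FARSA at 0.35. WARS1 lay at 0.33, with probe sets at 0.30 and 0.36. Below 0 were RARS1 at -0.05 and FARSB, whose protein is the partner subunit of FARSA in 1 enzyme, at -0.19 with 3 probe sets from -0.22 to 0.14.

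Among the regulators 14 of 19 lay above 0 and 4 (21.1%) were past 0.32, with a median of 0.14. TRIB3, a pseudokinase that feeds back on ATF4, read -0.24, 0.24, -0.81 and 0.67, a ratio of 0.48 with probe sets at 0.29 and 0.67. CEBPG, a binding partner of ATF4, read -0.17, 0.17, -0.39 and 0.37, with both probe sets close together at 0.33 and 0.35. In both the 6 h array was lowest and the 12 h array highest. NUPR1, a stress-induced nuclear protein, lay at 0.48 and VLDLR, a lipoprotein receptor, at 0.41. ATF4 mRNA itself lay at 0.12 and DDIT3, which encodes CHOP, at 0.22. ATF3 lay at -0.04 and CHAC1, which degrades glutathione, at 0.14. At the low end were DDIT4, a brake on mTORC1, at -0.27 and the hormone gene FGF21 at -0.17.

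**Figure D2:**
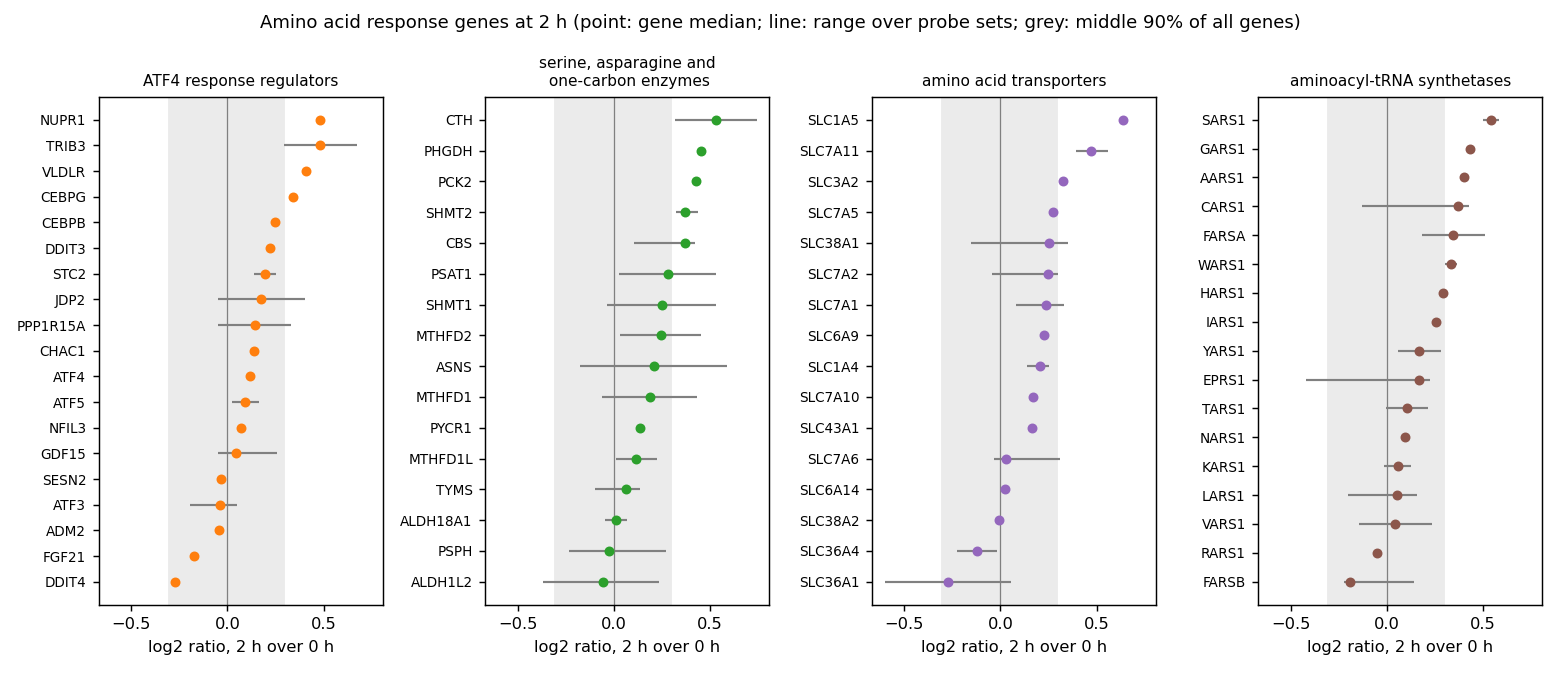
Log2 ratio of the 2 h over the 0 h array for each member of the 4 amino acid response lists. Points are gene medians, horizontal lines the range over probe sets, and the grey band the middle 90% of all genes (-0.30 to 0.29). Most points lie right of 0, and the highest of each panel lie between 0.48 and 0.64.

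The chaperones and degradation factors of the endoplasmic reticulum, which belong to the neighbouring unfolded protein response, were nearer to the background. Of 26 members read 16 (61.5%, beside 53.5% of all genes) lay above 0 and 10 below, with a median of 0.08. Past 0.32 were 2 (7.69%, beside 3.8%). SDF2L1, a luminal protein of the chaperone complex, read 0.54 at 2 h and -0.45 at 12 h and lay near 0 on the other 2 arrays, a ratio of 0.54. DNAJB9, a co-chaperone of HSPA5, read -0.19, 0.19, -0.81 and 0.38, and its 3 probe sets lay between 0.35 and 0.47. The major chaperone HSPA5 lay at 0.10, with probe sets at -0.03 and 0.23, HSP90B1 at -0.16 and CALR at -0.13. HYOU1 lay at 0.24 and DNAJC3 at -0.25. XBP1, the transcription factor of this response, lay at 0.08 with probe sets at -0.20 and 0.36.

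NRF2 is a factor that is kept low by KEAP1 until oxidants or electrophiles reach the cell, and it then raises genes for glutathione, thioredoxin and detoxification. Of 23 targets read 19 (82.6%) lay above 0, with a median of 0.14, and 4 (17.4%) were past 0.32, beside 3.8% of all genes. Of their 55 probe sets 43 lay above 0 and 11 below. OSGIN1, a regulator of growth under oxidative stress, read -0.10 (0 h), 0.73 (2 h), -0.13 (6 h) and 0.10 (12 h), a ratio of 0.83 (1.77-fold) on 1 probe set. SRXN1, which repairs over-oxidised peroxiredoxins, read -0.11, 0.38, -0.32 and 0.11, a ratio of 0.49. In both the 2 h array stood above the other 3. SLC7A11, given above, and AKR1B10, an aldo-keto reductase, at 0.42 were the remaining members past the threshold.

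Several members below that threshold had probe sets that all lay above 0. GCLC, the catalytic subunit of the first enzyme of glutathione synthesis, lay at 0.30 (3 probe sets from 0.15 to 0.33). SQSTM1, the autophagy receptor p62, lay at 0.29 (5 probe sets from 0.15 to 0.49). ABCC3, an export pump, lay at 0.24 (5 probe sets from 0.10 to 0.26). GCLM, the partner of GCLC, lay at 0.19, with 1 of its 3 probe sets at 0. Of the members most often used as readouts, HMOX1 lay at 0.03 on 1 probe set and NQO1 at 0.01 (3 probe sets from -0.05 to 0.04). TXNRD1 had a median of 0.02, but its 2 probe sets disagreed at -0.30 and 0.35. With shared probe sets left out 19 targets were readable, 17 above 0, with a median of 0.19.

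GCLM, at 0.19, and TXNRD1, at 0.02 from probe sets that disagreed, both hold a match to the core of the NRF2 element in these windows. The 250 bases upstream of GCLM (chr1:93909431-93909680, - strand) and TXNRD1 (chr12:104215529-104215778, + strand) are printed 5′ to 3′ on the gene's strand (RefSeq, GRCh38.p14), with capitals on matches to the antioxidant response element core TGACNNNGC on either strand.
GCLM: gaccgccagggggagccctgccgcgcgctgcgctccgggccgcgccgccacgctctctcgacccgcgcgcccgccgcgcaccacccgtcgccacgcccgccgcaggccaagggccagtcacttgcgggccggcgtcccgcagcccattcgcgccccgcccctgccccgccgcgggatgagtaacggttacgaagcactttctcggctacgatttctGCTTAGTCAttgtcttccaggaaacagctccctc
TXNRD1: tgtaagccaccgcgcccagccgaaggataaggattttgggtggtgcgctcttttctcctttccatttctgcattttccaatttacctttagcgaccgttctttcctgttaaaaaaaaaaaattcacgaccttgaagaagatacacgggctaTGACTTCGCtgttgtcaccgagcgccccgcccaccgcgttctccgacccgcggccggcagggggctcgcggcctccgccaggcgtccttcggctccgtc
The core occurs in 10.9% of all promoter windows and in 4 of the 18 NRF2 targets with one in the table. The other matched targets were PGD, at -0.08, and ME1, at -0.12.

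Heat-shock chaperones, the targets of HSF1, had a median of 0.08, with 11 of 16 above 0 and none past the threshold. HSPB1 lay at 0.30, DNAJB1 at 0.24, STIP1 at 0.22 and BAG3 at 0.19. CHORDC1 lay at 0.22 with probe sets at -0.11 and 0.55.

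Genes of DNA replication lay below 0 as a group, with smaller ratios. Before S phase the origin recognition complex, CDC6 and CDT1 load the MCM helicase on DNA. CDC45 and the GINS complex then switch it on, and E2F factors drive most of the genes involved. The lists of helicase and origin genes and of G1/S and nucleotide synthesis genes hold 50 genes read, of which 45 (90%) lay below 0, beside 45.9% of all genes. Their median was -0.12. Past -0.32 were 4 (8%, beside 4.29% of all genes) and none was past 0.32. Of their 97 probe sets 80 lay below 0 and 16 above. Of the 31 members with 2 or more probe sets, 16 (51.6%) had all of them below 0, beside 16% of all such genes, and none had all above. Single genes of these lists mostly lay inside the middle 90% of all genes. The list of B cell and immune cell markers, genes a HepG2 culture should lack, had a median as low, at -0.13, and its part in this was not tested.

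UHRF1 and MCM6 hold matches to the E2F element close to the start. The 250 bases upstream of UHRF1 (chr19:4909251-4909500, + strand) and MCM6 (chr2:135876444-135876693, - strand) are printed 5′ to 3′ on the gene's strand (RefSeq, GRCh38.p14). Capitals mark matches to TTTCCCGC, TTTGGCGC, TTTGCCGC or TTTCGCGC on either strand, which may overlap.
UHRF1: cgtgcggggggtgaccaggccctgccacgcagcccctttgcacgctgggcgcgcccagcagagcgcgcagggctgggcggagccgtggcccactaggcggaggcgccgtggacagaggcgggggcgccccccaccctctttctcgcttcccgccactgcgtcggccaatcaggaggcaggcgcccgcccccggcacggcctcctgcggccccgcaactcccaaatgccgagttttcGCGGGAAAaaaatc
MCM6: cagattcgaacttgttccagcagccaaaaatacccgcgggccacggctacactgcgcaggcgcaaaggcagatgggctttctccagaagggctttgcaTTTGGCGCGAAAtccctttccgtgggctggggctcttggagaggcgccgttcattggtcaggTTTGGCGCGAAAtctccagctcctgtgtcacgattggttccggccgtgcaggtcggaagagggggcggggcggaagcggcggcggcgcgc
A match occurs in 2.79% of all promoter windows. It was found in 6 of 20 helicase and origin genes and in 8 of 23 G1/S genes with a promoter in the table, among them ORC3, MCM7, E2F3 and TYMS, which lay above 0 at 2 h.

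Of the 23 helicase and origin genes 20 lay below 0, with a median of -0.12. ORC1, the largest subunit of the origin recognition complex, read 0.18 (0 h), -0.18 (2 h), 0.44 (6 h) and -0.73 (12 h), a ratio of -0.36. ORC6 lay at -0.33. Among the loading and activating factors MCM10 lay at -0.30 (3 probe sets from -0.33 to -0.09) and GINS2 at -0.28 (3 probe sets from -0.34 to -0.05). GINS1 lay at -0.27 and CDT1 at -0.25, with CDT1 probe sets at -0.46 and -0.05. The subunits of the MCM ring itself lay closer to 0. MCM2 was at -0.21, MCM4 at -0.12 (5 probe sets from -0.39 to -0.04) and MCM6 at -0.12. MCM3 was at -0.11, MCM5 at 0.0023 and MCM7 at 0.02. ORC3, at 0.15, was the highest member.

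Of the 27 G1/S and nucleotide synthesis genes 25 lay below 0, with a median of -0.13. UHRF1, which guides the maintenance of DNA methylation, read 0.24, -0.13, 0.13 and -1.86, a ratio of -0.37. E2F8, a repressor of the E2F family, lay at -0.35 and POLE2, a subunit of polymerase epsilon, at -0.29. E2F7 lay at -0.28 with probe sets at -0.60 and 0.03, and E2F2 at -0.28 with 3 probe sets from -0.30 to -0.13. TYMS, which makes thymidylate, was at 0.06, and E2F3 was at 0.28 with probe sets at -0.05 and 0.61. DTL, an adaptor that sends CDT1 for degradation and stands on neither list, read 0.23, -0.23, 0.29 and -1.50, a ratio of -0.46 with probe sets at -0.54 and -0.38. In ORC1 and DTL the order of the arrays was 6 h, 0 h, 2 h and 12 h from high to low.

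**Figure D3:**
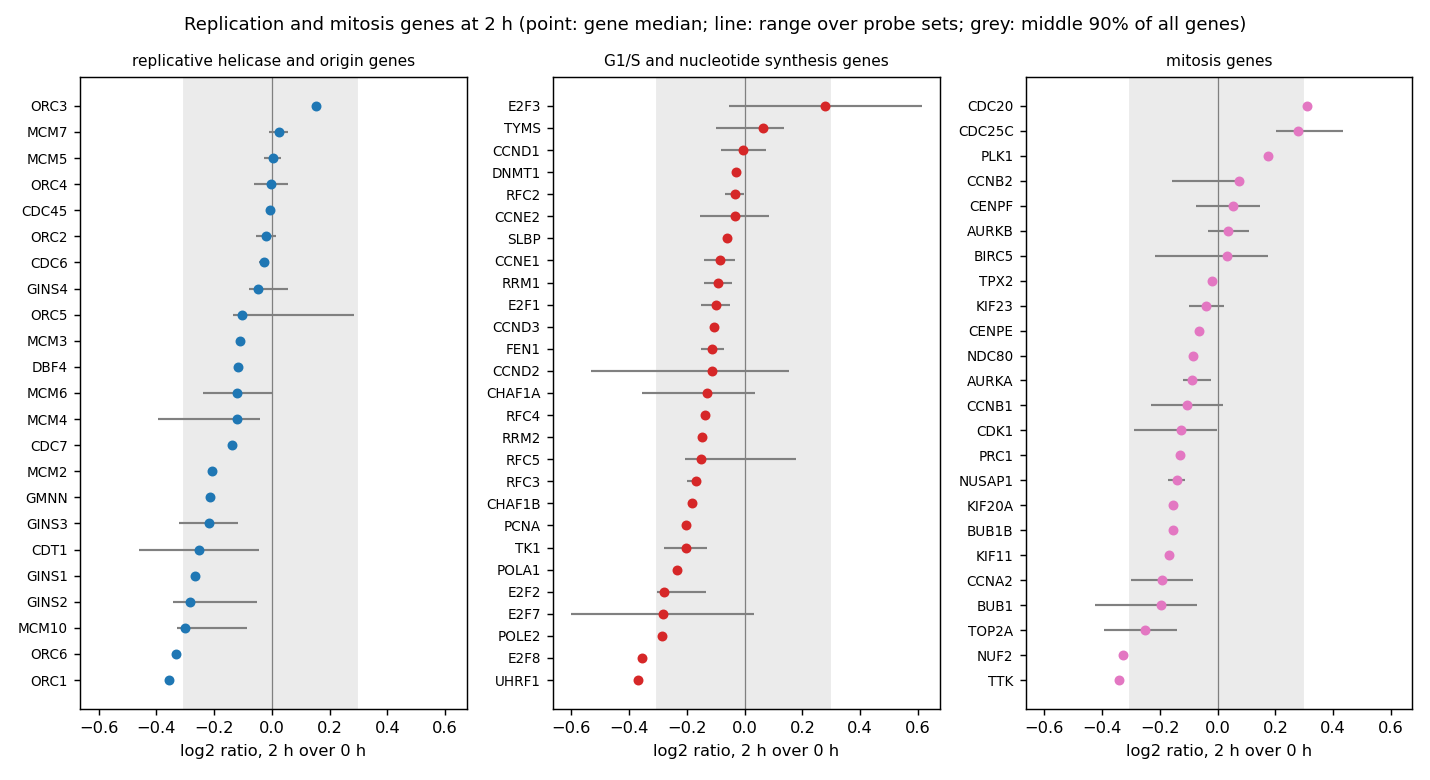
Log2 ratio of the 2 h over the 0 h array for each member of the helicase and origin, G1/S and nucleotide synthesis, and mitosis lists. Points are gene medians, horizontal lines the range over probe sets, and the grey band the middle 90% of all genes (-0.30 to 0.29). In the first panels 20 of 23 and 25 of 27 points lie left of 0, and in the mitosis panel 17 of 24.

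Mitosis genes had a median of -0.10, with 17 of 24 (70.8%, beside 45.9% of all genes) below 0. Past -0.32 were 2 (8.33%, beside 4.29%). These were TTK, a kinase of the spindle checkpoint, at -0.34 and NUF2, a kinetochore protein, at -0.33. TOP2A lay at -0.25 and BUB1 at -0.20 (5 probe sets from -0.42 to -0.07). CDC20, the activator of the anaphase-promoting complex, at 0.31 and the phosphatase CDC25C at 0.28 lay above 0.

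Histone genes that are normally expressed in S phase spread widely without a common direction. Of 38 read 18 lay above 0 and 19 below, with a median of -0.0040. The share past -0.32 was 7 of 38 (18.4%, beside 4.29% of all genes) and past 0.32 it was 2 of 38 (5.26%, beside 3.8%). H3C2, the lowest gene of the comparison, read 1.44 (0 h), 0.15 (2 h), -0.15 (6 h) and -0.36 (12 h), a ratio of -1.28 (2.43-fold lower) on 1 probe set that can match several transcripts. H1-4 read 1.254, 0.50, -0.50 and -0.58, a ratio of -0.75. In both the 0 h array stood above the other 3. H2AC4 lay at -0.63 and H2BC17 at -0.46, while H4C9 lay at 0.88 and H2BC11 at 0.51. These mRNAs carry no poly(A) tail in their main form, and how much of them the labelling step reads was not tested.

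**Figure D4:**
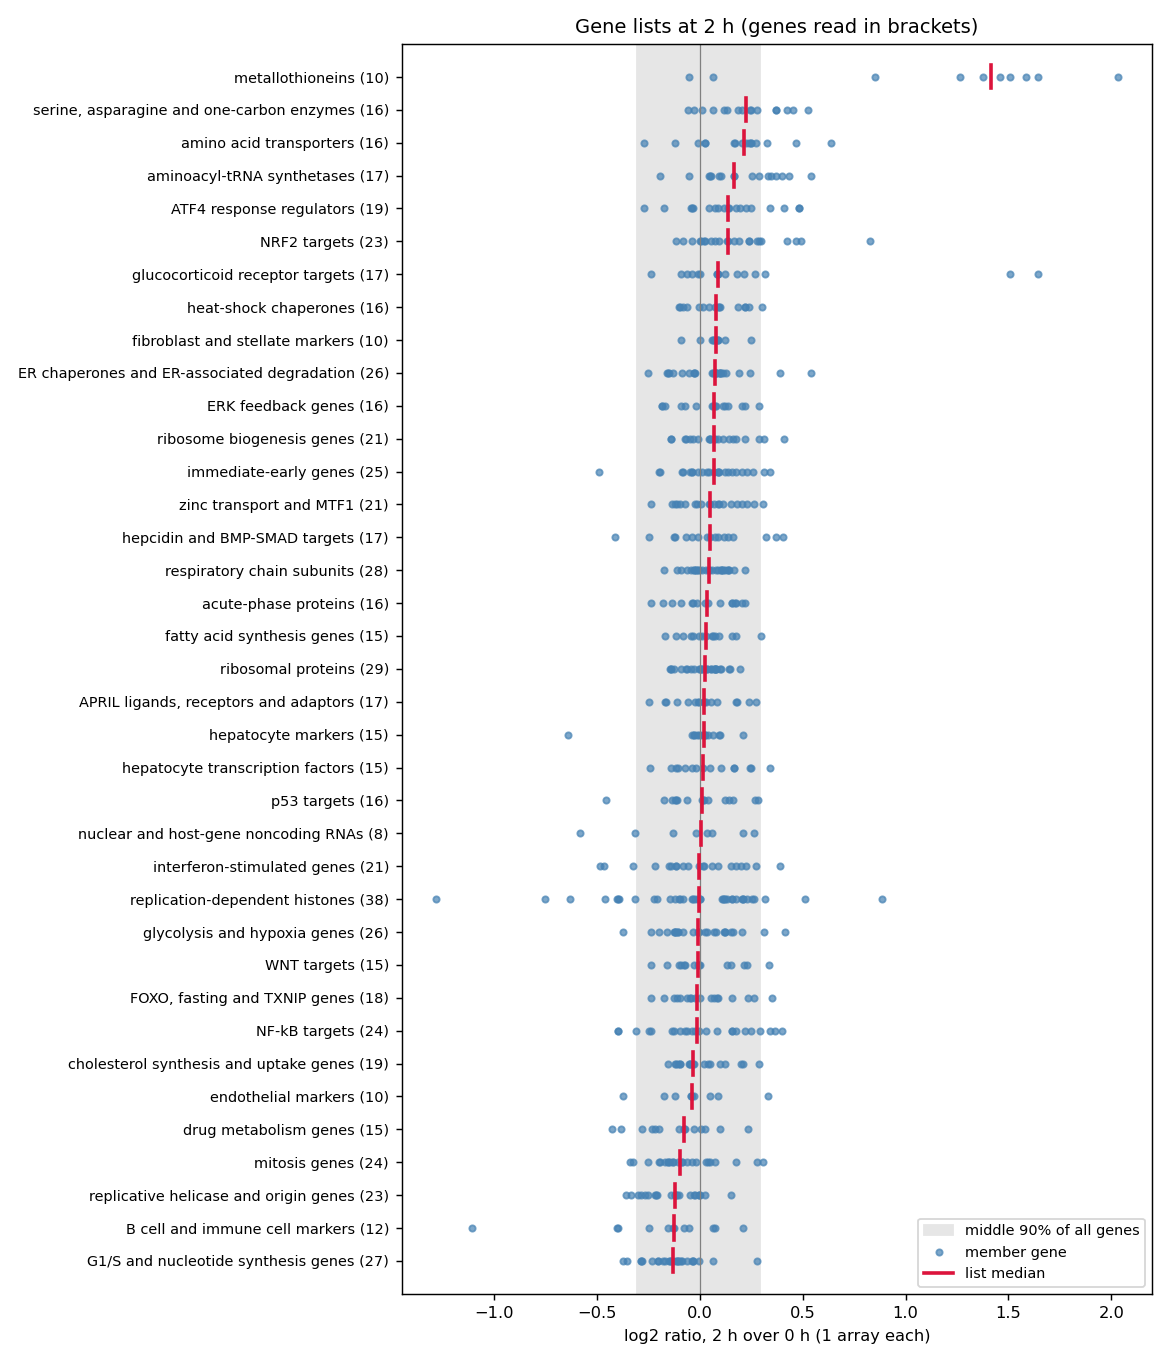
Log2 ratio of the 2 h over the 0 h array for every member gene of 37 lists, ordered by list median. Points are genes, red bars list medians, numbers in brackets genes read, and the grey band the middle 90% of all genes (-0.30 to 0.29). The metallothioneins stand apart at a median of 1.42, the amino acid response lists follow at 0.14 to 0.22, and the replication lists are at the low end at -0.12 and -0.13, together with the immune cell markers at -0.13.

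The lists for early signalling had medians near that of all genes at 2 h. The 25 immediate-early genes, which answer growth factors and stress within the first hour or so, had a median of 0.07, with 16 above 0. FOS read 0.14, -0.35, -0.14 and 0.78, a ratio of -0.49 with the 2 h array lowest. IER2 lay at 0.34, ZFP36, which destabilises cytokine mRNAs, at 0.31, SRF at 0.26 and MYC at 0.23. The 24 NF-kB targets had a median of -0.01 with 11 above 0, and 3 (12.5%, beside 3.8% of all genes) were past 0.32 and 2 (8.33%, beside 4.29%) past -0.32. ICAM1, an adhesion molecule, lay at 0.40 with 3 probe sets from 0.26 to 0.46 and the NF-kB subunit RELB at 0.37. CFB, a complement factor, lay at 0.34. On the other side TNFAIP2 was at -0.40, and the chemokines CXCL10 and CCL2 were at -0.40 and -0.31.

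The 16 ERK feedback genes had a median of 0.07 and none past the threshold. ETV4 was the largest at 0.29, and the phosphatases DUSP6 and DUSP5 lay at -0.19 and -0.17. The ligands, receptors and adaptors of the APRIL system, 17 genes, had a median of 0.02 and none past the threshold. TNFRSF17, which encodes BCMA, lay at 0.27, TNFRSF13C, the receptor of the related ligand BAFF, at -0.25, and TNFSF13 itself at 0.24. The proteoglycan SDC4 lay at 0.18. The 21 interferon-stimulated genes had a median of -0.0029. Past -0.32 were 3 (14.3%, beside 4.29% of all genes) and past 0.32 was 1 (4.76%, beside 3.8%). The largest members in size were IFI44L at -0.49, IFIT1 at -0.46 and IFI27 at 0.39.

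p53 targets had a median of 0.01, and 1 of 16 was past the threshold, on the lower side (6.25%, beside 4.29% of all genes). This was PMAIP1, which encodes the cell death protein NOXA, reading 0.15, -0.30, -0.28 and 1.28, a ratio of -0.46 with probe sets at -0.48 and -0.44. BAX, another death gene, lay at 0.27. FOXO and fasting genes had a median of -0.01, with FOXO3 at 0.35 (4 probe sets from 0.13 to 0.41) and FOXO1 at 0.26 (3 probe sets from 0.22 to 0.27). WNT targets had a median of -0.01, with NOTUM, an enzyme that inactivates WNT ligands, at 0.34.

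Liver functions also lay near the background. The 16 acute-phase proteins had a median of 0.03 and none past the threshold, the largest being HPX, which binds haem, at -0.24, SOCS3 at 0.22 and the fibrinogen chain FGA at 0.20. The 15 hepatocyte markers had a median of 0.02. APOB, the protein of liver lipoproteins, was the only marker past the threshold, at -0.64, and its 2 probe sets disagreed at -1.29 and 0.01. The 15 hepatocyte transcription factors had a median of 0.01, and CEBPA, reading 0.33, 0.68, -0.39 and -0.33, was the highest at 0.34.

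Iron control showed differences at single genes. HAMP, which encodes the hormone hepcidin, read 0.57 (0 h), 0.97 (2 h), -0.60 (6 h) and -0.57 (12 h), a ratio of 0.41 with the 2 h array highest. TFR2, a sensor of loaded transferrin, lay at 0.37 (3 probe sets from 0.20 to 0.43) and BMP2, a ligand that raises hepcidin, at -0.41 (probe sets at -0.64 and -0.18). The whole list of 17 hepcidin and BMP-SMAD genes had a median of 0.05, with 10 above 0. Past 0.32 were 3 (17.6%, beside 3.8% of all genes) and past -0.32 was 1 (5.88%, beside 4.29%).

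Of the 15 drug metabolism genes 11 (73.3%, beside 45.9% of all genes) lay below 0, with a median of -0.08 and 2 (13.3%, beside 4.29%) past -0.32. UGT1A1, which conjugates bilirubin, lay at -0.42 and CYP2B6 at -0.38, with probe sets at -0.42 and -0.35. CYP2C8 lay at -0.28 and CYP1A1 at -0.23. The 19 cholesterol genes had a median of -0.03 and the 15 fatty acid synthesis genes 0.03, with none past the threshold in either list. PMVK, a mevalonate pathway kinase, was the largest cholesterol gene at 0.29 and FADS2, a desaturase, the largest fatty acid gene at 0.30. Glycolysis and hypoxia genes had a median of -0.01, with HK2, a hexokinase, at 0.42 (3 probe sets from 0.25 to 0.49) and the glucose transporter SLC2A3 at -0.37 (3 probe sets from -0.48 to -0.08).

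The housekeeping groups stayed close to the median of all genes. The 29 ribosomal protein genes had a median of 0.02 and the 28 respiratory chain genes 0.04, with none past the threshold. The 21 ribosome biogenesis genes had a median of 0.07, with 14 above 0 and RRP9 alone past the threshold at 0.41. UTP4 lay at 0.29, with probe sets at 0.28 and 0.30, and POLR1C, a subunit of RNA polymerases I and III, at 0.22.

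Long noncoding RNAs as an annotated class lay lower than protein-coding genes. Of 2656 lncRNA genes 226 (8.51%) were past -0.32 and 110 (4.14%) higher, with a median of -0.031. Of 16520 protein-coding genes 579 (3.5%) were lower and 608 (3.68%) higher, with a median of 0.022. How far these transcripts lie above the background of the arrays could not be read from centred values, and its part in this difference was not tested. MALAT1, a long RNA that stays in the nucleus, read 0.93, 0.26, -0.98 and -0.26 as the median of 12 probe sets, which ranged from -1.23 to 0.07 in their ratios at 2 h, with a median of -0.58. Its highest array was 0 h and its lowest 6 h.

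Outside the lists, the genes named are those whose probe sets all lay past the threshold in 1 direction. Of the 28 higher ones 7 stood on a list and 21 on none. ARHGAP27P1, a transcribed pseudogene, was the highest of the 21 at 0.67. PNMA2 lay at 0.54, the homeobox factor PITX1 at 0.51 and SDR42E1 at 0.49. IGFBP3, the main carrier of insulin-like growth factors in blood, read -0.24, 0.24, -0.74 and 1.40, a ratio of 0.49 with probe sets at 0.47 and 0.51. TMPRSS3, a membrane protease, lay at 0.49 over 3 probe sets from 0.46 to 0.57. TIMM44, part of the motor that pulls proteins into mitochondria, lay at 0.43, as did LINC00963. From high to low the arrays of IGFBP3 and TMPRSS3, like those of SLC7A11 and TRIB3, ran 12 h, 2 h, 0 h and 6 h. The share of all genes with this order was not counted. Genes named as higher have 2 h above 0 h by choice.

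Of the 38 lower genes 2 stood on a list, PMAIP1 and CYP2B6. Among the others were DTL, given above, and FAM111B, a protease gene, which read 0.31, -0.16, -0.07 and 0.07, a ratio of -0.47. DBR1, which opens the lariats left by splicing, lay at -0.48. MAP6, a microtubule protein, was the lower gene with the most probe sets, at -0.44 over 4 from -0.64 to -0.37. The lowest were NELL1 at -0.50, CACNG6 at -0.50, the olfactory receptor OR1Q1 at -0.49 and GPR12 at -0.49, genes best known from tissues other than liver.

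LY86 was the other gene past 2-fold downward. It encodes a partner of the immune receptor RP105 and is a marker of B cells and myeloid cells. Its single probe set read 0.32, -0.78, 0.22 and -0.22, a ratio of -1.11 with the 2 h array alone low. It belongs to a set of markers of cells that a HepG2 culture should lack. Of 12 immune cell markers read 9 (75%, beside 45.9% of all genes) lay below 0, with a median of -0.13, as low as the replication lists. Past -0.32 were 3 (25%, beside 4.29%), namely LY86, MS4A1 at -0.40 (4 probe sets from -0.77 to 0.19) and CSF1R at -0.40. Of 10 endothelial markers 7 lay below 0 with a median of -0.04, and of 10 fibroblast and stellate markers 9 lay above 0 with a median of 0.08 and none past the threshold. Whether any of these transcripts was above background could not be read from centred values, and their part in the other results was not tested.

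Beside the later arrays the groups took different courses, and all 3 comparisons share the 0 h array. The metallothionein list had a median of 1.42 (2 h), 1.11 (6 h) and -2.38 (12 h). The 68 amino acid response genes had a median of 0.18 at 2 h with 56 above 0, -0.09 at 6 h with 25 above 0, and 0.44 at 12 h with 55 above 0. The 50 replication genes had a median of -0.12 at 2 h with 45 below 0, -0.0015 at 6 h with 25 below 0, and -0.68 at 12 h with 45 below 0. Over all genes 59.6% lay above 0 and 39.7% below at 6 h, and 51.7% above and 47.7% below at 12 h. NRF2 targets went from 0.14 at 2 h to 0.06 and -0.03, and heat-shock chaperones from 0.08 to 0.32 and 0.14. The bacterial hybridization controls had a median of 0.055 at 6 h and -0.35 at 12 h against 0 h, so the 12 h array differs from the 0 h array in these as well, and their part in the 12 h values was not tested.

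**Figure D5:**
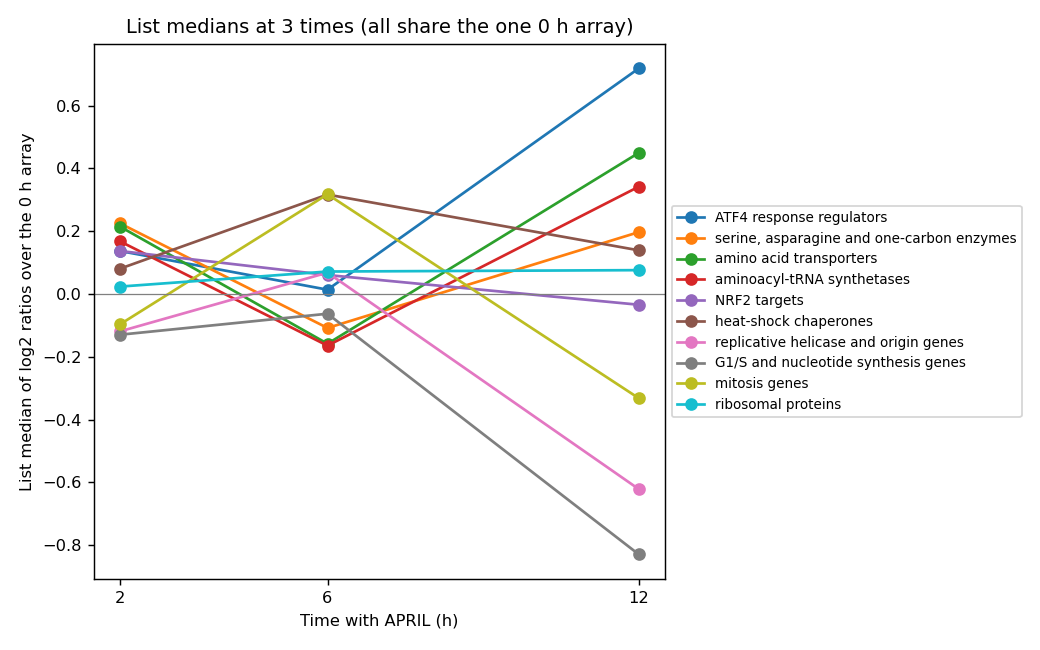
Median log2 ratio of 10 lists against the single 0 h array, at 2 h, 6 h and 12 h with APRIL (1 array each). The amino acid response lists are above 0 at 2 h, near or below 0 at 6 h and above 0 at 12 h, and the replication lists are below 0 at 2 h and at -0.62 and -0.83 at 12 h.

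Because every ratio rests on the one 0 h array, the 2 h array was also set against the mean of the 0 h and 6 h arrays. The amino acid response lists had medians above 0. These were 0.32 for the enzymes (15 of 16 above 0) and 0.28 for the transporters (13 of 16). The synthetases lay at 0.29 (16 of 17) and the ATF4 regulators at 0.07 (14 of 19). The 0 h array is still part of this reference. At 6 h against 0 h the enzymes, transporters and synthetases had medians of -0.11, -0.16 and -0.16, and the regulators 0.01. A low 6 h array raises the ratios, so for these lists this is no independent check of the 0 h array. NRF2 targets lay at 0.09, with 16 of 23 above 0 in place of 19. The helicase and origin genes lay at -0.18 (20 of 23 below 0) and the G1/S genes at -0.14 (22 of 27), beside -0.01 for all genes. At 6 h against 0 h the helicase and origin genes had a median of 0.07 (16 of 23 above 0) and the G1/S genes -0.06. A high 6 h array lowers the ratios, and the 0 h array is kept. For the replication lists this is therefore no independent check either. Heat-shock chaperones changed side, from 0.08 with 11 of 16 above 0 to -0.08 with 6 of 16, and immediate-early genes went from 0.07 to -0.0083. The metallothionein median was 0.78, the 6 h array being high for them as well. Of the 9 genes then 2-fold higher only 3 were metallothioneins, MT1M, MT1X and MT1E. The others included CTH and SLC7A11 of the amino acid response, at 1.08 and 1.17. Both were low on the 6 h array, at -1.34 and -1.70, and against the 0 h array alone their ratios were 0.53 and 0.47. The rest were FICD, SLC20A1, ST7-AS1 and DLGAP1-AS6, at 1.03 to 1.04, which stand on no list and were chosen after their values were seen. H3C2, which read lower at 6 h than at 0 h, was no longer past 2-fold.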

How the data were processed

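The deposited log2 values of the 4 arrays came from RMA per the submitters' processing notes, with no version given. RMA corrects background, makes the arrays' distributions alike and condenses each probe set into a single value. In the deposited table every probe set had a median of 0 over the arrays (within 1e-06), and the tool that did this was not given in the sources used here. That the logarithm has base 2 and that higher means more transcript were assumed, since neither is stated. Column medians were -0.0050, 0, 0.011 and -0.0043 at 0, 2, 6 and 12 h.

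Probe sets were named through the platform annotation, with symbols brought up to date from RefSeq (GRCh38.p14). Probe sets with 1 symbol were used (41091). Those with several (1801) or none (11721) and 62 controls were left out of gene values. Ratios were computed with Python 3.11.15, pandas 2.3.3 and numpy 2.4.6, and the computation was tested on simulated data. Where a gene has several probe sets, its value on each array is the median over them, so the printed array values need not differ by exactly the median ratio.

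The genes and the 37 lists (806 entries, 701 read) were chosen with earlier results of these data known. Named are all genes past 2-fold, the 15 highest and 15 lowest of those with agreeing probe sets, up to 6 members of each list by size of ratio, and any member of 8 lists whose members are accounted for more fully. Genes named as examples of a promoter match are outside this rule where no list gives them, and were chosen after their values were seen. Alternatives were centring on each array's median or on the hybridization controls, leaving out probe sets ending in _x_at or _s_at, the mean over probe sets, the mean of the 0 h and 6 h arrays as reference, and other thresholds. A floor on dim probe sets, another background correction and a slide effect could not be run, because the values hold no level and no scanner files were used here.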

Additional observations from a re-analysis of the deposited data

Results flagged for a closer look

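Probe sets outside the gene values were also read at 2 h against 0 h. Of the 11721 probe sets with no gene symbol, 1 lay past 2-fold, at a log2 ratio of 1.92. It read -2.14 (0 h), -0.21 (2 h), 0.32 (6 h) and 0.21 (12 h), so the 0 h array alone was low. Of the 1801 with several symbols, 2 lay past 2-fold, at 1.04 and -1.14. The first read 0.11, 1.15, -0.11 and -0.14, with the 2 h array alone high, and the second read 1.197, 0.053, -0.053 and -0.13, with the 0 h array alone high. These 3 probe sets drew attention as readings past 2-fold that no gene value contains, and each is a single reading on 1 array a side.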

How the results depend on the processing

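Both centrings and the mean over probe sets left all 37 list medians and all 239 named genes within the robust SD of their value. They also kept the direction of lists past 0.1 and genes past 0.32. These are weak checks, because a centring moves every ratio by the same constant. A gene with 1 or 2 probe sets also has the same mean and median. Without probe sets ending in _x_at or _s_at, 2 genes were 2-fold higher, MT1M and FOLR1 (1.61, chosen after its value was seen). There 17 genes had agreeing probe sets upward, 113 had opposite ones and the metallothionein median was 0.015, since fewer probe sets were read. Of the named genes 175 were readable there, and 18 of them differed by more than the robust SD. The medians of the amino acid enzymes and the synthetases were both 0.11, in place of 0.22 and 0.17. With the mean of the 0 h and 6 h arrays as reference, 9 genes were 2-fold higher (3 of them metallothioneins), 4 were 2-fold lower (LY86, IFIT1, and CYP7A1 and RAD54B, both chosen after their values were seen), 96 were 1.5-fold higher and 81 had agreeing probe sets upward. Of the 37 list medians 10 changed sign, 2 of them from past 0.05 (heat-shock chaperones, to -0.08, and immediate-early genes). The metallothionein median was then 0.78 and that of mitosis genes -0.28. Of the named genes 66 differed by more than the robust SD and 5 changed sign, IFI27 (-0.00097), H1-4 (0.13), SLC2A3 (0.30), APOB (0.16) and MALAT1 (0.26); each had its 6 h value far from that at 0 h. At 1.5-fold 61 genes were higher and 68 lower, and at 3-fold 2 (MT1M and MT1X) and 0. No paired analysis was possible because each time has 1 array. Signal over background, which limits dim probe sets, cannot be read from centred values.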
